A study of Homo sapiens with 16 samples.

Results

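TGFBI encodes a secreted matrix protein with fasciclin domains that binds collagens, fibronectin and integrins, and it takes its name from its induction by TGF-beta. The locus was taken as the span of TGFBI (chromosome 5, 136028988 to 136063818, plus strand, 34.8 kb) with 50 kb on each side, on the hg38 build. Of 692199 peaks called in 12 ChIP-seq libraries, 319 lay in this window of 134.8 kb. ChIP-seq maps where a protein or a histone mark sits on DNA, and a peak is a stretch that the peak caller found enriched.

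The cells were H69, a line made by viral transformation of cholangiocytes, which form the epithelium of human bile ducts. The TGF-beta groups received recombinant human TGF-beta at 10 ng/ml for 16 h, and the vehicle groups received vehicle for the same time. Each treatment had 2 libraries for SMAD3 (replicates 4 and 5), 2 for H3K27ac and 2 for H3K9ac (replicates 1 and 2 of each mark), and 4 input samples were not analysed here. No gene was altered in any group, and because 1 cell line was used, the results hold for that line. Whether the replicates came from separate cultures is not stated in the labels; p-values measure only the spread between these libraries.

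TGF-beta binds its receptor kinases at the cell surface, which phosphorylate SMAD3. SMAD3 then joins SMAD4, enters the nucleus and binds DNA at short CAGAC boxes and at GC-rich elements such as GGCGC, usually beside other transcription factors. H3K27ac marks active enhancers and promoters, and H3K9ac marks active promoters most of all, with some enhancers. In bile duct epithelium TGF-beta is known for driving a fibrogenic, matrix-producing state.

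Occupancy was measured as the length of DNA inside peaks, because the peak lists carry no read counts and the sequencing depth is unknown. In a bulk sample, fewer cells carrying a peak and less signal per cell cannot be told apart. Libraries held 22451 to 92714 peaks. The length covered over the genome with TGF-beta was 1.53 times that with vehicle for SMAD3, 1.13 times for H3K27ac and 0.939 times for H3K9ac. To take such shifts out, each library was centred on its median over genes with a peak in all 4 libraries of the target, which removed a TGF-beta shift of 0.37, 0.12 and -0.10 on the log2 scale. Among the cholangiocyte markers, KRT7, KRT19 and SOX9 had H3K27ac within 10 kb in all 4 libraries, EPCAM had it in 3, and CFTR had no peak of any target. Markers of other cell types were not all silent: PDGFRB, a mesenchymal receptor, had 11.4 to 16.4 kb of H3K27ac and PECAM1, an endothelial adhesion molecule, had 13.3 to 14.1 kb, while COL3A1 and DES had no H3K27ac peak. Of the 4 hepatocyte markers, ALB and TTR had no peak of any target, and APOA1 and CYP3A4 had H3K27ac in all 4 libraries, at 0.195 to 0.331 kb and 0.176 to 2.107 kb. Their sum was 2.36 kb in both TGF-beta libraries and 0.371 to 1.18 kb in vehicle libraries. The summed H3K27ac of the 4 mesenchymal markers was 15.1 to 16.4 kb in TGF-beta libraries and 11.4 to 11.7 kb in vehicle libraries; it came from PDGFRB, apart from 0.307 kb at LUM in 1 library. For the 3 endothelial markers the sums were 19.6 to 19.8 kb in TGF-beta libraries and 17.5 to 18.0 kb in vehicle libraries, and for the 4 leukocyte markers 12.04 to 12.1 kb in TGF-beta libraries and 13.5 to 15.7 kb in vehicle libraries. A peak within 10 kb can belong to a neighbouring gene, and the part of such cells in the results was not tested.

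The start of TGFBI carried peaks of all 3 targets in all 12 libraries, so its sequence is shown. RefSeq places this promoter, 250 bases before to 50 bases after the first base of the gene, at chr5:136028738-136029037 on the plus strand of GRCh38.p14. Capitals mark GGCGC on either strand.
TGFBI promoter: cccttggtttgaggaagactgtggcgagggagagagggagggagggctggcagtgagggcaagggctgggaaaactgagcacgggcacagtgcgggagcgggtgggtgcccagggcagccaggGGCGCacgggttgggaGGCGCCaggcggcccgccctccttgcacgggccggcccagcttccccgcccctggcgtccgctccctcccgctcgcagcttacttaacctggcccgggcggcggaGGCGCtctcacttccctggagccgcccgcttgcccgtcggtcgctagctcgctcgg
GGCGC matched at 4 positions, whose first bases lie at -127, -111, -110 and -6 counted from the gene's first base as 1. The matches at -111 and -110 overlap, being the 2 strands of GGCGCC. Of 35116 RefSeq promoters of this length, 48.6% hold GGCGC on either strand. The GC box GGGCGG, which Sp1 binds, also matched 4 times and is found in 44.95% of promoters. The letters CAGAC, the SMAD palindrome GTCTAGAC, the AP-1 motif TGANTCA and the TATA box TATAAA did not occur on either strand, against 45.3%, 0.202%, 7.71% and 11.5% of promoters. The sequence is 72.7% G and C with 27 CpG pairs, against medians of 58.7% and 14 over all promoters. SMAD3 peaks covered all 300 bases in both TGF-beta libraries, against 157 and 300 bases in vehicle replicates 4 and 5. H3K27ac and H3K9ac peaks covered all 300 bases in every library except vehicle replicate 1 of H3K27ac, where 237 bases were covered.

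SMAD3 covered most of the gene in TGF-beta libraries, against a few short peaks in vehicle libraries. The window held 46 and 47 SMAD3 peaks in TGF-beta replicates 4 and 5, against 2 and 3 in vehicle replicates 4 and 5. These covered 48.85 and 36.85 kb in TGF-beta libraries and 0.828 and 1.27 kb in vehicle libraries. Both TGF-beta libraries therefore lay far above both vehicle libraries, with means of 42.85 ± 8.49 kb and 1.05 ± 0.311 kb (SD, n = 2 libraries each), a ratio of 40.9. The log2 change was 4.44 ± 0.156 (SE) with an adjusted p of 2.61e-09, from limma on log2(length + 500 bp) over 14876 genes with Benjamini-Hochberg adjustment at 0.05. Of these genes, 15.5% passed the test as higher and 4.51% as lower, and TGFBI had the highest change of all. It ranked second with a pseudocount of 100 bp and 3rd when 100 kb was taken on each side. An exact permutation test of 1 value in 2 against 2 libraries cannot go below p = 0.333, so the p-value rests on the spread that limma borrows from other genes.

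**Figure D1:**
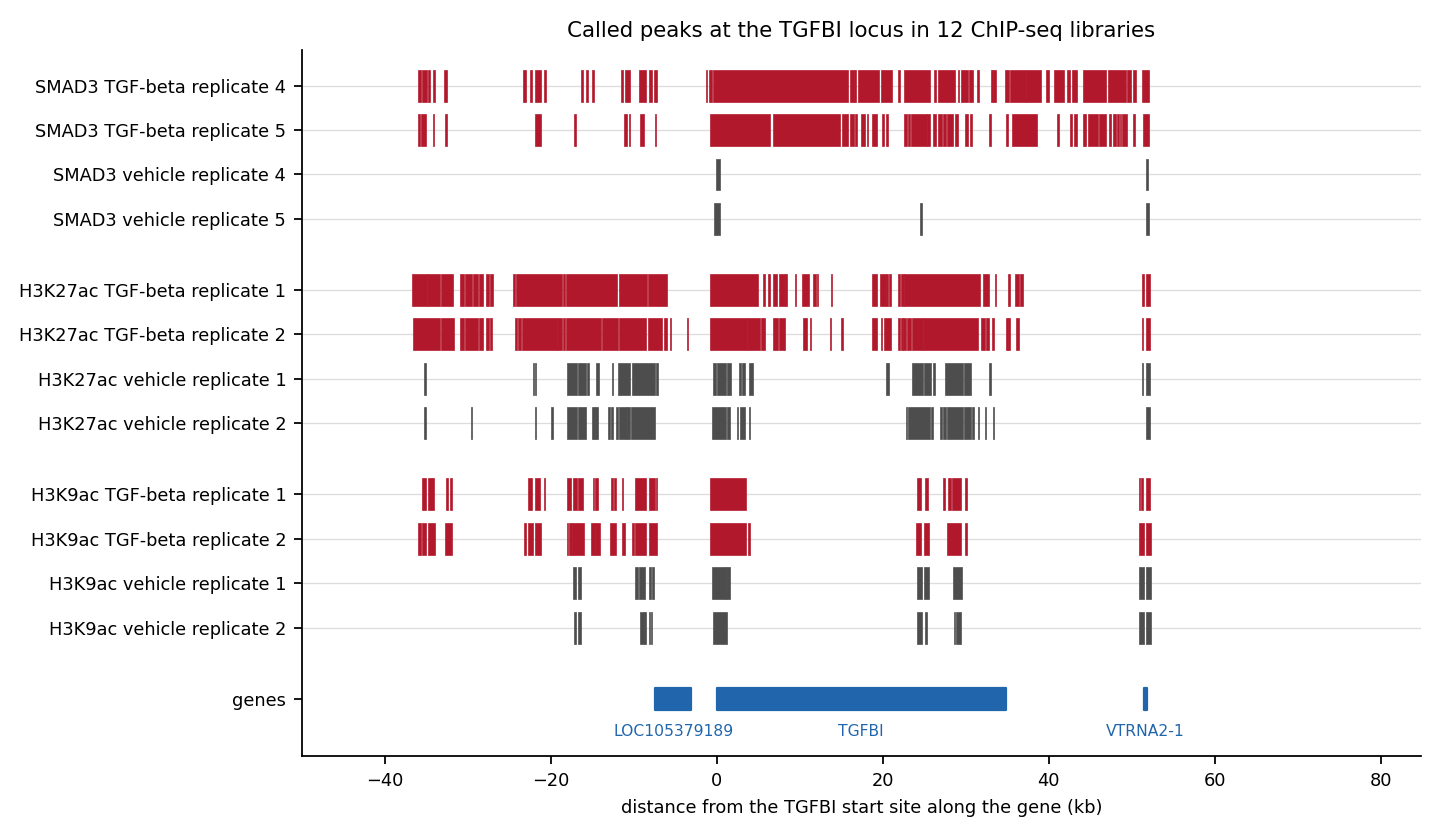
Peaks called in each of the 12 libraries (rows; red, TGF-beta; grey, vehicle) by distance from the TGFBI start site in kb, with the 3 annotated genes of the window in blue. SMAD3 runs over the gene and on to VTRNA2-1 in TGF-beta libraries, against 2 and 3 short peaks in vehicle libraries, and from 55 kb to the end of the window no library has a peak.

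Within the gene, SMAD3 peaks covered 28.4 and 23.7 kb in TGF-beta libraries and 0.419 and 0.591 kb in vehicle libraries. That was 81.6% and 68.0% of the gene's length with TGF-beta, against 1.20% and 1.70% with vehicle. Among 14316 genes of at least 10 kb, the share of the gene covered ranked 5th in each TGF-beta library, where the median gene had 0.844% and 0.886%. In vehicle libraries the same share ranked 4660 and 4107. The first 15 kb of the gene, in steps of 5 kb, were 94.3% to 100% covered in both TGF-beta libraries. In the vehicle libraries 8.38% and 8.04% of the first 5 kb were covered, and nothing from 5 to 20 kb. The longest single SMAD3 peak of the locus measured 16276 bp in TGF-beta replicate 4 and 8166 bp in TGF-beta replicate 5, against 526 and 724 bp in vehicle replicates 4 and 5. By length these were the 3rd and the 9th longest of all SMAD3 peaks of their TGF-beta libraries.

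SMAD3 covered more of each part of the locus in TGF-beta libraries than in vehicle libraries. Upstream it covered 7.12 and 4.03 kb in TGF-beta libraries and 0.107 and 0.322 kb in vehicle libraries, and downstream 13.3 and 9.15 kb in TGF-beta libraries and 0.302 and 0.355 kb in vehicle libraries. The log2 change was 4.504 ± 0.134 over the gene (SE, limma adjusted p = 0.000657). It was 2.75 ± 0.240 upstream (SE, limma adjusted p = 0.000394) and 3.49 ± 0.191 downstream (SE, limma adjusted p = 0.000166). In both flanks each vehicle length was below the filter on mean length and below the pseudocount. TGFBI was therefore tested there only through its TGF-beta libraries, and its flank p-values depend on that selection. Within the gene the vehicle lengths, 0.419 and 0.591 kb, lay near the pseudocount, so the size of that change depends on it. With pseudocounts of 100 and 2000 bp the change over the gene was 5.10 and 3.39, which still passed. Over all genes tested, 10.7% passed in this direction for the gene, 12.7% for the 50 kb on the lower-coordinate side and 12.2% for the 50 kb on the higher-coordinate side. Flanks of all genes were taken by coordinate, so for genes on the minus strand the lower-coordinate side is downstream; this holds for every share of genes given beside a flank. Without vehicle replicate 4 the change over the gene was 4.45 with a limma adjusted p of 0.0657, and with a pseudocount of 2000 bp the upstream and downstream changes were 1.58 and 2.33, which still passed.

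**Figure D2:**
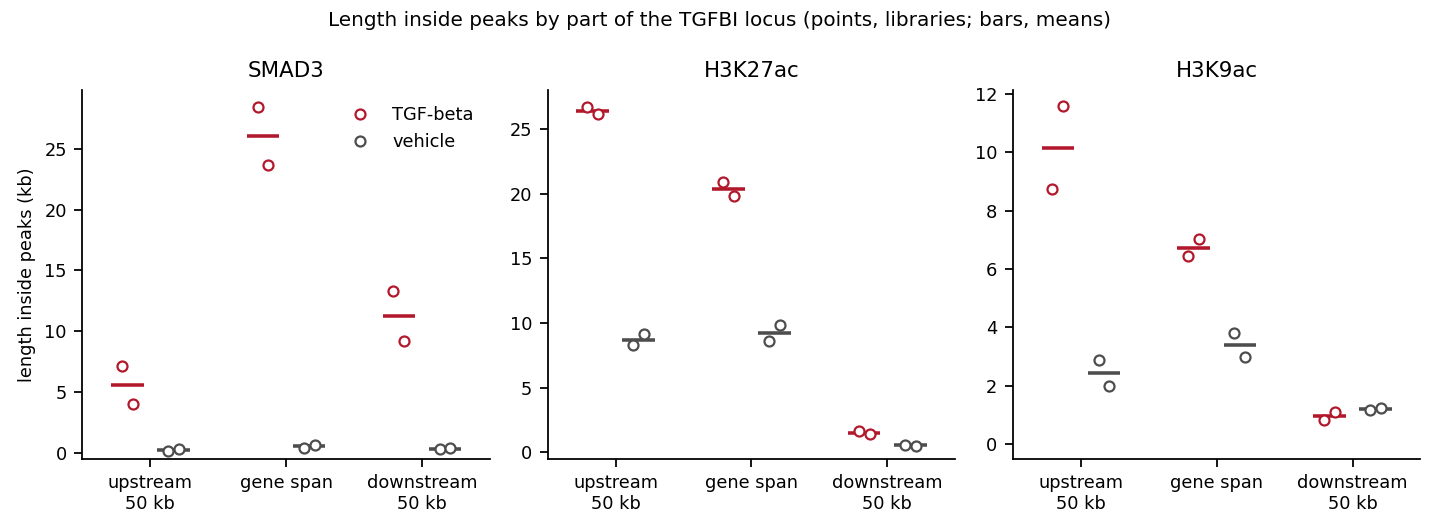
Length inside peaks (kb, vertical axis, a scale for each panel) in the 50 kb upstream, the gene span and the 50 kb downstream of TGFBI, for SMAD3, H3K27ac and H3K9ac. Points are libraries (TGF-beta in red, vehicle in grey) and bars are means of 2. TGF-beta means lie above vehicle means except for H3K9ac downstream, where the change did not pass (limma adjusted p = 0.493). With 2 libraries in each group, points that lie apart are no test.

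Merging the SMAD3 peaks of the 4 libraries where they overlapped by at least 1 bp gave 46 regions. Of these, 24 were gained, meaning that each TGF-beta library had a peak there while no vehicle library did. None was lost (the reverse), 2 were called in all 4 libraries and 20 were mixed. Over the genome 13.7% of 38390 merged SMAD3 regions were gained, 0.669% were lost and 41.7% were called in all 4 libraries. The number of gained regions at TGFBI depended on how peaks were joined and on the libraries used, being 7 of 9 when gaps of up to 1 kb were closed, 12 of 27 with the same number of peaks from each library, and 44 and 43 without TGF-beta replicate 4 or 5. The gained region at chr5:136064381-136068040 (3660 bp), just past the end of TGFBI, was the longest of all 5253 gained regions of the genome. The next at this locus, chr5:136073128-136075936 (2809 bp), ranked 5th. Another 3 regions, of 2437, 2254 and 2150 bp, ranked 11th, 16th and 19th.

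The 2 SMAD3 regions called in all 4 libraries lay at the start of TGFBI and at VTRNA2-1. The region at the start, chr5:136028061-136044842, spanned 16782 bp, of which peaks covered 16640 and 16022 bp in TGF-beta libraries and 526 and 724 bp in vehicle libraries. It counts as called in all 4 only because a short vehicle peak lies inside it. When a library had to cover at least 20% of a region, 26 of 46 regions were gained and they held 44.6 kb, against a gained share of 14.2% over the genome. The VTRNA2-1 region spanned 866 bp, with 846 and 783 bp in TGF-beta libraries and 302 and 355 bp in vehicle libraries. Inside the gene, past its first 20 kb, vehicle replicate 5 had 1 more peak of 189 bp that vehicle replicate 4 lacked. All vehicle SMAD3 length in the window was also covered in TGF-beta replicate 5, and at least 98.66% of it in TGF-beta replicate 4.

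Upstream, SMAD3 formed separate short sites rather than a run. Gained sites lay at 36.0 to 32.5 kb, 21.9 to 21.1 kb and 11.1 to 7.1 kb before the start, and the longest, 755 bp each, were at chr5:135993377-135994131 and chr5:136007090-136007844. At the first of these the TGF-beta libraries had 658 and 607 bp and at the second 729 and 725 bp, against 0 in both vehicle libraries. Between 30 and 25 kb before the start no library had a SMAD3 peak. The first 10 kb of the window held no peak of any target.

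H3K27ac was present at the locus with vehicle and covered more of it with TGF-beta, most of all upstream. The window held 40 and 45 peaks in TGF-beta libraries and 26 and 31 in vehicle libraries. Peaks covered 49.3 and 47.4 kb in TGF-beta libraries and 17.5 and 19.5 kb in vehicle libraries. The means were 48.3 ± 1.36 kb and 18.5 ± 1.42 kb (SD, n = 2 libraries each), a ratio of 2.62. The log2 change was 1.24 ± 0.0607 (SE, limma adjusted p = 0.000174), ranked 246 of 16265 genes tested, of which 18.4% passed as higher and 18.5% as lower. TGF-beta replicate 2 was sequenced on another lane than the other 3 H3K27ac libraries. Within the lane shared by TGF-beta replicate 1 and both vehicle libraries, the log2 change was 1.26.

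The 50 kb upstream of TGFBI held 26.7 and 26.2 kb of H3K27ac in TGF-beta libraries and 8.28 and 9.13 kb in vehicle libraries, and the gene held 20.9 and 19.8 kb in TGF-beta libraries and 8.58 and 9.88 kb in vehicle libraries. The log2 change was 1.45 ± 0.0741 upstream (SE, limma adjusted p = 0.000137) and 1.03 ± 0.0865 over the gene (adjusted p = 0.000739), and 14.1% of genes passed in this direction for the lower-coordinate flank and 12.9% for the gene. Downstream only 1.63 and 1.40 kb lay inside peaks in TGF-beta libraries and 0.597 and 0.469 kb in vehicle libraries. There the log2 change was 0.86 ± 0.110 (SE, limma adjusted p = 0.00243; 15% of genes), and with the same number of peaks from each library it was 0.51 (adjusted p = 0.13); with a pseudocount of 2000 bp it was 0.40 and passed.

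The upstream acetylation was not spread evenly. From 35 to 30 kb before the start, 78.2% and 81.3% was inside H3K27ac peaks in TGF-beta libraries, against 0.18% and 0.42% in vehicle libraries. From 25 to 20 kb the values were 88.9% and 79.8% in TGF-beta libraries, against 7.04% and 3.26% in vehicle libraries. From 20 to 5 kb before the start the vehicle libraries already had 42.8% to 58.7% of each 5 kb covered, and the TGF-beta libraries 72.7% to 97.2%. The last 5 kb before the start stayed low, at 16.5% and 19.3% in TGF-beta libraries and 8.32% and 10.6% in vehicle libraries. Past the last upstream block, only TGF-beta replicate 2 had H3K27ac before the block at the start, in peaks of 145 and 141 bp.

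Inside the gene, H3K27ac lay in a block at the start and a second block at 22.2 to 31.8 kb. The start block covered 5831 and 6005 bp in TGF-beta libraries and 2953 and 3111 bp in vehicle libraries. The second block, chr5:136051156-136060745, covered 9507 and 9060 bp in TGF-beta libraries and 5458 and 6990 bp in vehicle libraries. Between them, from 5 to 20 kb, vehicle libraries had no H3K27ac peak at all, and TGF-beta libraries had 16.8% to 40.7% of each 5 kb covered. Merged H3K27ac regions numbered 40, of which 15 were gained, none was lost, 8 were called in all 4 libraries and 17 were mixed, against 12%, 4.72% and 41.9% of 104387 regions gained, lost and called in all 4 over the genome. The gained count was 2 of 9 with gaps of up to 1 kb closed, 9 with the same number of peaks from each library, and 27 without either TGF-beta replicate. Of the H3K27ac length found in both vehicle libraries, 98.2% was kept in both TGF-beta libraries, against 85.4% over the genome.

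H3K9ac also covered more of the locus with TGF-beta, upstream and over the gene. Its peaks numbered 28 and 25 in TGF-beta libraries and 13 in each vehicle library. They covered 16.0 and 19.7 kb in TGF-beta libraries and 7.88 and 6.22 kb in vehicle libraries. The means were 17.9 ± 2.62 kb and 7.05 ± 1.17 kb (SD, n = 2 libraries each), a ratio of 2.54. The log2 change was 1.39 ± 0.0884 (SE, limma adjusted p = 0.000262), ranked 35 of 16458 genes tested, of which 6.85% passed as higher and 7.02% as lower. Within the lane shared by TGF-beta replicate 1 and both vehicle libraries it was 1.31.

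Upstream H3K9ac was 8.73 and 11.6 kb in TGF-beta libraries and 2.90 and 1.97 kb in vehicle libraries, with a log2 change of 1.97 ± 0.135 (SE, limma adjusted p = 0.000346; 4.86% of genes). From 40 to 20 kb before the start no vehicle library had an H3K9ac peak, and both TGF-beta libraries had peaks there. Over the gene it was 6.45 and 7.02 kb in TGF-beta libraries and 3.80 and 2.999 kb in vehicle libraries, with a log2 change of 0.97 ± 0.0986 (SE, limma adjusted p = 0.000933; 3.88% of genes). Without centring, the change over the gene was 0.90 with a limma adjusted p of 0.104. Downstream it was 0.839 and 1.11 kb in TGF-beta libraries and 1.18 and 1.25 kb in vehicle libraries, and the log2 change of -0.13 ± 0.0943 did not pass (limma adjusted p = 0.493; 4.5% of genes higher and 5.30% lower).

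The H3K9ac block at the start of TGFBI covered 4344 and 4341 bp in TGF-beta libraries and 2140 and 1749 bp in vehicle libraries. From 5 to 20 kb into the gene no library of either treatment had an H3K9ac peak, which is the stretch where SMAD3 coverage with TGF-beta was 53.8% to 100%. Merged H3K9ac regions numbered 26, of which 11 were gained, none was lost, 9 were called in all 4 libraries and 6 were mixed, against 5.15%, 6.15% and 49.8% of 68046 regions gained, lost and called in all 4 over the genome. The gained count was 3 of 9 with gaps of up to 1 kb closed and 17 without TGF-beta replicate 2. The change of H3K9ac minus that of H3K27ac was 0.14 ± 0.113 and did not pass (SE, limma adjusted p = 0.449; 3.85% of genes higher and 6.61% lower). The SMAD3 change was higher than that of H3K27ac by 3.19 ± 0.192 on the log2 scale (SE, limma adjusted p = 5.04e-05). Of 14806 genes, 14.7% passed in this direction. Vehicle SMAD3 covered far less of the window than vehicle H3K27ac, which left SMAD3 more room for a log2 change. The part of this in the difference was not tested.

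**Figure D3:**
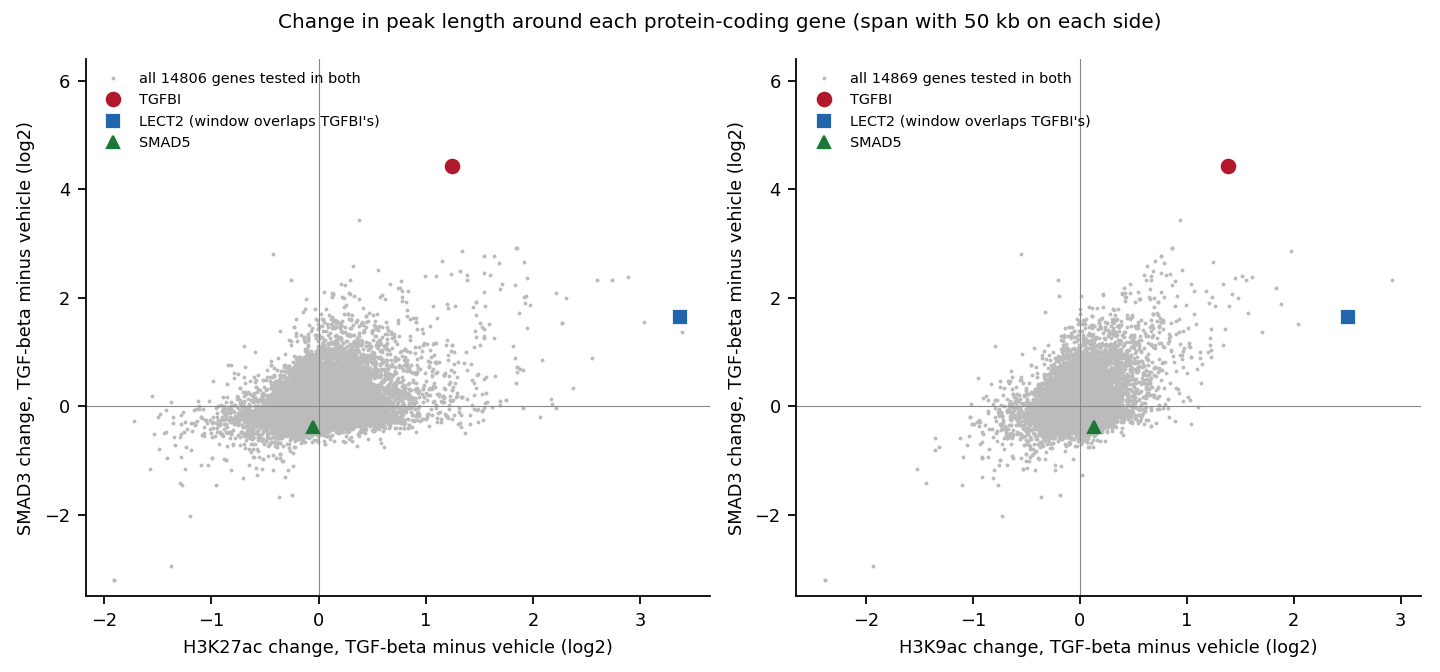
Log2 change in peak length, TGF-beta minus vehicle, for SMAD3 (vertical) against H3K27ac (left, horizontal) and H3K9ac (right, horizontal); each grey point is a protein-coding gene with 50 kb on each side. TGFBI lies at 4.44 for SMAD3, 1.24 for H3K27ac and 1.39 for H3K9ac; LECT2 shares its window with the upstream side of TGFBI, and SMAD5 is the next coding gene downstream.

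The overlap of SMAD3 with acetylation varied along the locus. SMAD3 length found in both TGF-beta libraries came to 35.4 kb, of which 48.3% lay inside H3K27ac found in both TGF-beta libraries, against 79.9% for SMAD3 over the whole genome. H3K27ac found in both vehicle libraries held 20.7% of it, against 76.9% over the genome. For H3K9ac the shares were 22.1% with TGF-beta and 9.61% with vehicle, against 79.1% and 78.9% over the genome. Outside every peak of the 8 acetylation libraries lay 41.3% of the SMAD3 length at TGFBI and 11.9% over the genome.

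These shares depended on position. Upstream, 100% of the 3.52 kb of SMAD3 lay inside TGF-beta H3K27ac, although that SMAD3 filled only 13.97% of the acetylated length there. Over the gene, 55.7% of 23.1 kb of SMAD3 lay inside TGF-beta H3K27ac and 31.2% outside every acetylation peak. Downstream, 8.22% of 8.82 kb lay inside TGF-beta H3K27ac and 84.2% outside every acetylation peak. From 40 to 50 kb past the start, SMAD3 covered 29.1% to 91.2% of each 5 kb in TGF-beta libraries, while none of the 8 acetylation libraries had a peak. H3K9ac found in both TGF-beta libraries lay almost wholly (98.4%) inside TGF-beta H3K27ac, against 82.7% over the genome. No test was made of these overlaps, since stretches of 1 locus are not replicates.

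**Figure D4:**
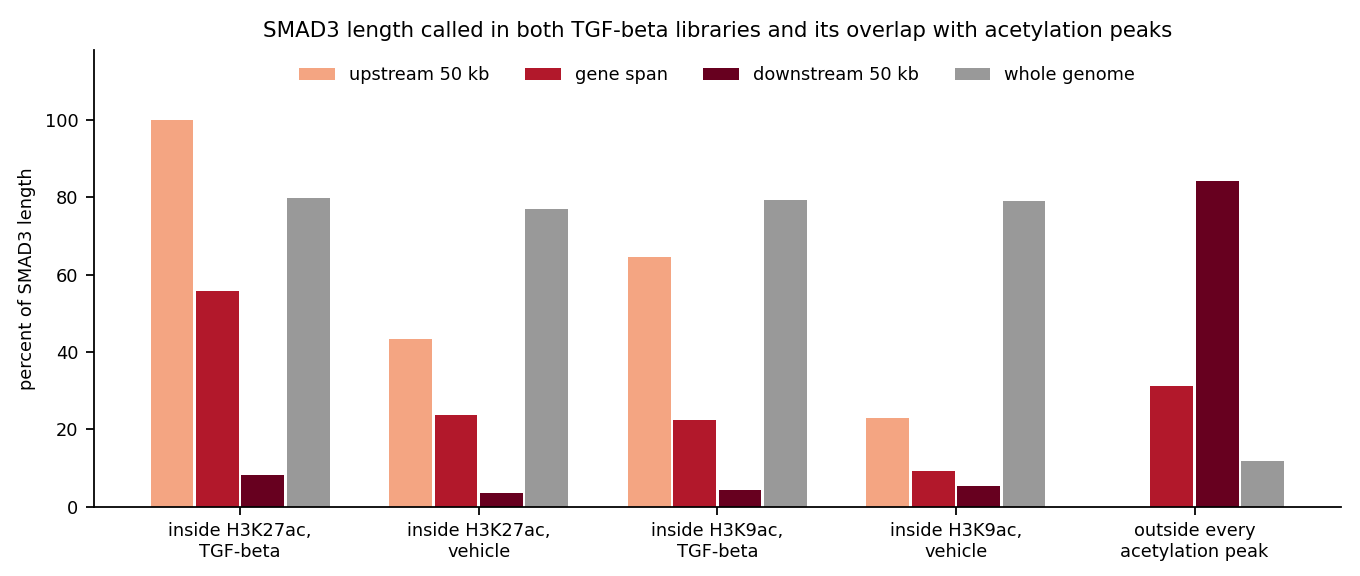
Percent of the SMAD3 length found in both TGF-beta libraries that lay inside H3K27ac or H3K9ac found in both libraries of a treatment, or outside all acetylation peaks, for 3 parts of the TGFBI locus and the whole genome (grey). Upstream SMAD3 lay wholly inside TGF-beta H3K27ac, whereas 84.2% of downstream SMAD3 lay outside every acetylation peak.

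At TGFBI the peaks of both libraries of a treatment overlapped more than those of unlike treatments. The Jaccard index, the length covered in both libraries over the length covered in either, for SMAD3 was 0.704 between TGF-beta libraries and 0.569 between vehicle libraries, and 0.0170 to 0.0344 across treatments. For H3K27ac it was 0.848 between TGF-beta libraries and 0.675 between vehicle libraries, and 0.340 to 0.391 across. For H3K9ac it was 0.757 between TGF-beta libraries and 0.712 between vehicle libraries, and 0.297 to 0.425 across. SMAD3 TGF-beta replicate 4 had more length than replicate 5 in all 3 parts, and 96.05% of the length of replicate 5 lay inside that of replicate 4.

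Besides TGFBI, the annotation has LOC105379189 and VTRNA2-1 in the window. LOC105379189, a long non-coding RNA gene on the minus strand 7.4 to 3.1 kb before the start of TGFBI, held 293 and 102 bp of SMAD3 in TGF-beta libraries and 0 in vehicle libraries. Its H3K27ac was 1395 and 1439 bp in TGF-beta libraries and 156 and 6 bp in vehicle libraries. VTRNA2-1, a vault RNA gene 51.5 kb past the start, had within 1 kb 846 and 783 bp of SMAD3 in TGF-beta libraries and 302 and 355 bp in vehicle libraries. Its H3K27ac within 1 kb was 747 and 615 bp in TGF-beta libraries and 597 and 469 bp in vehicle libraries, and its H3K9ac 839 and 1114 bp in TGF-beta libraries and 1183 and 1246 bp in vehicle libraries. The 8 acetylation libraries had no peak on VTRNA2-1 itself, and their peaks lay within 1 kb on its sides with and without TGF-beta. These were the last peaks of the window: from 55 kb to the end of the window no library had a peak.

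Within 10 kb of the nearest coding genes on either side, the tests that could be made, at SMAD5 and SMIM32, did not pass. IL9, a cytokine gene, and LECT2, which encodes a secreted hepatocyte protein, had no peak of any target within 10 kb in any of the 12 libraries, so they were not tested there. With 50 kb on each side, LECT2 reached log2 changes of 1.65 for SMAD3, 3.37 for H3K27ac and 2.504 for H3K9ac (limma adjusted p = 5.53e-06, 7.46e-05 and 0.000114). That window overlaps the upstream side of TGFBI. In the stretch shared with the window of TGFBI, only TGF-beta libraries had SMAD3 or H3K9ac peaks. The LECT2 p-values for SMAD3 and H3K9ac therefore depend on passing the length filter through TGF-beta libraries. SMAD5, a SMAD of the BMP branch that starts 103.9 kb past the start of TGFBI, had within 10 kb 891 and 864 bp of SMAD3 in TGF-beta libraries and 680 and 1123 bp in vehicle libraries. H3K27ac near SMAD5 was 1847 and 1998 bp in TGF-beta libraries and 1879 and 1731 bp in vehicle libraries. With 10 kb on each side, the log2 changes at SMAD5 were -0.31 ± 0.132 for SMAD3, -0.01 ± 0.0906 for H3K27ac and 0.19 ± 0.0938 for H3K9ac (SE), and none passed (limma adjusted p = 0.164, 0.933 and 0.287). SMIM32, a small membrane protein gene, had H3K9ac only, at 1054 and 1363 bp in TGF-beta libraries and 1460 and 1078 bp in vehicle libraries (log2 change 0.04, limma adjusted p = 0.839).

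Genes related to TGFBI by protein or pathway were taken as 4 lists and read with 50 kb on each side. The lists were chosen with earlier results of these data known, so their counts are a description and no independent support. Of 9 matrix partners of the protein, 6 were tested for SMAD3 and 5 passed as higher with TGF-beta, 7 were tested for H3K27ac with 5 higher, and 8 for H3K9ac with 5 higher, and none was lower. Over all genes tested, 15.5%, 18.4% and 6.85% were higher for SMAD3, H3K27ac and H3K9ac. The median log2 change was 1.39, 0.71 and 0.49, against -0.00, -0.04 and -0.00 over all genes tested. FN1, which encodes fibronectin, had 10.3 and 7.88 kb of SMAD3 in TGF-beta libraries and 1.82 and 1.94 kb in vehicle libraries (log2 change 1.63). COL6A3, counted as higher for SMAD3, had 0.181 and 0.175 kb in vehicle libraries. It passed the filter of a 500 bp mean length only through its TGF-beta libraries. COL4A1, a basement membrane collagen, had 31.15 and 32.8 kb of H3K27ac in TGF-beta libraries and 12.9 and 12.3 kb in vehicle libraries (log2 change 1.19). COL6A1, a chain of the collagen VI that TGFBI protein binds, had log2 changes of 0.00, -0.06 and 0.02 and passed for none of the targets.

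Of 8 integrin subunits reported to bind the protein, 2 were higher for SMAD3, 5 for H3K27ac and 4 for H3K9ac, and 1 (ITGA6, an alpha chain of laminin receptors) was lower for H3K27ac at -0.46, a call that was lost without centring. The shares of all genes called higher were 15.5%, 18.4% and 6.85%, and the SMAD3 count of 2 of 8 is near the first of these. The median log2 change was 0.22, 0.34 and 0.26. ITGB1, the common beta chain, had 12.3 and 10.6 kb of SMAD3 in TGF-beta libraries and 2.09 and 2.999 kb in vehicle libraries (log2 change 1.61). ITGAV, an alpha chain of RGD-binding integrins, had 11.3 and 11.35 kb of H3K27ac in TGF-beta libraries and 5.70 and 4.66 kb in vehicle libraries (log2 change 0.94). Among the fasciclin relatives, POSTN was higher for H3K27ac at 0.39 and had no SMAD3 peak. STAB1 and STAB2, scavenger receptors of endothelium and macrophages, were lower for H3K27ac at -0.23 and -0.54, and STAB2 was lower for H3K9ac at -1.06. For H3K9ac, STAB2 had 0.216 and 0.2 kb in TGF-beta libraries, so it passed the length filter only through its vehicle libraries. Without centring, the H3K27ac call of STAB1 was lost and that of STAB2 was not.

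Of 30 TGF-beta and SMAD targets, 21 of 29 tested were higher for SMAD3, 18 of 29 for H3K27ac and 17 of 30 for H3K9ac, against 15.5%, 18.4% and 6.85% of all genes, and none was lower. The median log2 change was 0.91, 0.29 and 0.29. Since members were chosen with earlier results of these data known, the shares of all genes are no independent yardstick. SMAD7, the inhibitory SMAD, had 14.7 and 12.6 kb of SMAD3 in TGF-beta libraries and 2.90 and 3.90 kb in vehicle libraries (log2 change 1.5). ITGB6, which encodes an integrin chain that activates latent TGF-beta, and COMP, a cartilage matrix protein gene, had SMAD3 changes of 2.51 and 2.32. Some counted members passed the length filter only through their TGF-beta libraries. For SMAD3, NEDD9 had 0.317 and 0.329 kb in vehicle libraries. For H3K9ac, LDLRAD4 had 0.408 and 0.406 kb there. Without centring, 27 of these targets were higher for SMAD3, 19 for H3K27ac and 9 for H3K9ac, against 31.1%, 25.3% and 2.9% of all genes. In that fit 5 integrin subunits were higher for SMAD3, 5 for H3K27ac and 2 for H3K9ac, and no called member of any list changed sign.

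The genes whose pattern over the 12 libraries was closest to that of TGFBI were PMEPA1, TSPAN11, CGB7, SIRPA and ARFGAP1. Likeness was the root-mean-square difference in log2 length relative to the vehicle mean of each target, among 14802 genes tested for all 3 targets and leaving out overlapping windows. It was 0.583 for PMEPA1, an inhibitor of TGF-beta signalling, 0.702 for TSPAN11, a tetraspanin, and 0.705 for CGB7, a chorionic gonadotropin beta gene in a cluster of near-identical copies. It was 0.7765 for SIRPA, the receptor of CD47, and 0.782 for ARFGAP1, a GTPase activator of the Golgi. Each window took in 50 kb on each side, so the peaks can belong to neighbours of the named genes. PMEPA1 had 30.3 and 25.6 kb of SMAD3 in TGF-beta libraries and 1.05 and 2.18 kb in vehicle libraries. Its H3K27ac was 39.8 and 39.6 kb in TGF-beta libraries and 27.7 and 28.1 kb in vehicle libraries, a log2 change of 0.38. TSPAN11 had SMAD3 of 5.28 and 3.37 kb in TGF-beta libraries and none in vehicle libraries, so it was tested for SMAD3 only through its TGF-beta libraries. The SMAD3 changes of these 5 genes ran from 2.66 to 3.43. TGFBI had the highest SMAD3 change of all genes tested, so each was bound to be lower.

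**Figure D5:**
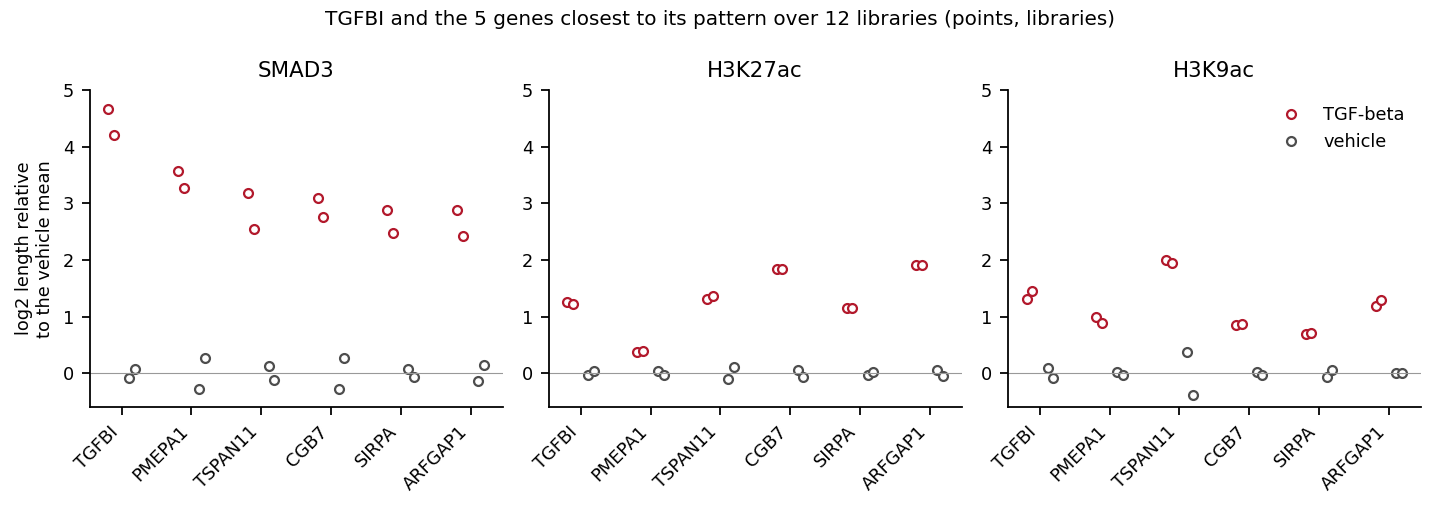
Log2 length inside peaks relative to the vehicle mean of each target, for TGFBI and the 5 genes closest to it (gene with 50 kb on each side). Points are libraries (red, TGF-beta; grey, vehicle); SMAD3 values of TGFBI are 4.67 and 4.21 in TGF-beta libraries and -0.08 and 0.08 in vehicle libraries.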

How the data were processed

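Crosslinking took 10 min and fragments were read for 51 bases from each end, per the labels' protocols. Per the submitters' processing notes, BWA, Picard, MACS2 and bedtools were used with the hg38 build. No source used here gives their settings, their versions or the control of each peak call. The authors deposited 1 peak list per library, not pooled over replicates, with a score that is -log10 of a p or q value (no source used here says which); its lowest value was 2.001 to 2.045. Scores were used in a single library at a time, to rank or filter its peaks. Lane 8 held TGF-beta replicate 2 of H3K27ac and of H3K9ac and all SMAD3 libraries, and lane 7 held the rest, per the file headers.

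Outside chromosomes 1 to 22 and X lay 7 to 66 peaks per library, which were left out. The length inside peaks was computed for the gene with 50 kb on each side, and for its parts, for 19974 RefSeq protein-coding genes of GRCh38.p14, as log2(length + 500 bp), keeping genes whose mean length reached 500 bp. Changes are TGF-beta minus vehicle, tested with limma 3.58.1 in R 4.3.3, Benjamini-Hochberg adjusted over all genes tested; the difference between targets was tested as a treatment by target term. Windows of neighbouring genes overlap, so genes are not independent tests. The annotation used gives no exons. The code was tested on simulated data. Other steps used Python 3.11.15. Depth is unknown, so no counting error is given.

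Named genes were TGFBI, the genes of its window, the nearest 2 coding genes on each side, the cell type markers, the 4 lists and the 5 genes most like TGFBI. The members and lists were chosen with earlier results of these data known. Alternatives tried were other flanks, pseudocounts, filters, centring, peak numbers and score limits, region joining, limma options, a replicate block and leaving out each library. Values of some single genes of the lists are not reported here.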

Additional observations from a re-analysis of the deposited data

Results flagged for a closer look

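The log2 change at TGFBI differed between targets under the same treatment. The SMAD3 length with 50 kb on each side had a log2 change higher than that of H3K27ac by 3.19 ± 0.192 (SE, treatment by target term in limma, adjusted p = 5.04e-05), ranked 2 of 14806 genes tested. SMAD3 covered 48.85 and 36.85 kb in TGF-beta libraries and 0.828 and 1.27 kb in vehicle libraries, and H3K27ac covered 49.3 and 47.4 kb in TGF-beta libraries and 17.5 and 19.5 kb in vehicle libraries. The targets started from unlike vehicle lengths, on average 1.05 kb for SMAD3 and 18.5 kb for H3K27ac, in a window of 134.8 kb. A longer vehicle length leaves less room for a log2 change in a window of fixed size. The targets were also pulled down with different antibodies and had different replicate numbers. They differed in lane as well: all SMAD3 libraries were on lane 8, and of the H3K27ac libraries only TGF-beta replicate 2 was. The part of each of these in the difference was not tested. Groups of 2 libraries are too small for a test of single libraries that stand apart.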

How the results depend on the processing

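Of 138 alternative values of the limma tests at TGFBI, 135 stayed on the same side of the threshold and 3 lost the call: SMAD3 over the gene without vehicle replicate 4 (4.45, adjusted p = 0.0657), H3K27ac downstream with peak numbers equalised (0.51, adjusted p = 0.13) and H3K9ac over the gene without centring (0.90, adjusted p = 0.104). The cause was not tested. No called value changed sign; the H3K9ac minus H3K27ac difference, never past the threshold, was -0.08 without centring and 0.00 to 0.27 otherwise. Over all alternatives, other flanks included, the change around TGFBI ran from 3.63 to 4.81 for SMAD3, 0.95 to 1.37 for H3K27ac and 0.95 to 1.48 for H3K9ac; leaving out 1 library gave 4.21 to 4.67, 1.21 to 1.28 and 1.296 to 1.48, and 4.36 to 4.65 for SMAD3 over the gene. H3K27ac downstream ran from 0.40 to 1.24.

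Gained regions at TGFBI numbered 7 for SMAD3, 2 for H3K27ac and 3 for H3K9ac when gaps of up to 1 kb were closed, which joins regions, and 12 and 9 for SMAD3 and H3K27ac with peak numbers equalised. Leaving out 1 library gave 24 to 44 for SMAD3, 16 to 27 for H3K27ac and 11 to 17 for H3K9ac; with 1 TGF-beta library the rule asks for fewer calls.

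Counts over all genes also moved. For SMAD3, 2311 genes were higher and 671 lower; without centring these were 4623 and 31, with peak numbers equalised 1287 and 325, with 10 kb on each side 1403 and 176, without TGF-beta replicate 4 1415 and 224, and without TGF-beta replicate 5 or vehicle replicate 4 364 and 440 were lower. Lower SMAD3 genes numbered 1117 with 100 kb on each side and 415 and 438 with pseudocounts of 100 and 2000 bp. For H3K27ac, 2985 higher and 3005 lower became 4112 and 1301 without centring and 1956 and 1552 without TGF-beta replicate 2; lower genes were 1596 with 10 kb on each side and 1743 without TGF-beta replicate 1. For H3K9ac, 1128 higher and 1155 lower became 477 and 1177 without centring, 668 and 498 without TGF-beta replicate 1, and higher genes were 612 with 10 kb on each side and 705 without TGF-beta replicate 2; limma's trend and robust options gave 1796 lower. The share of higher among called genes was 77.5%, 49.8% and 49.4% for SMAD3, H3K27ac and H3K9ac, and 99.3%, 76.0% and 28.8% without centring.

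Same-numbered libraries did not deviate together (correlations -0.09, -0.02 and -0.15 for SMAD3, H3K27ac and H3K9ac). With 2 libraries per treatment, this check cannot settle whether the numbers pair the samples. With the replicate block the changes were 4.44, 1.24 and 1.39 and all passed; genes called were 2140 higher and 494 lower for SMAD3, 2868 and 2725 for H3K27ac, and 1129 and 1151 for H3K9ac. With crossed numbers in the block for H3K9ac, added after seeing the data, 1215 genes were higher and 1287 lower. Without read counts, how depth limits the peak length cannot be told here.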
